A study of Homo sapiens with 6 samples.

Results

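The genes described are the 4 ID genes and 6 genes of BMP signalling, namely the ligands BMP2 and BMP4, the receptors BMPR1A and BMPR2, and the inhibitors SMAD6 and BAMBI. They were taken as all probe sets that GEO's platform annotation gives to exactly 1 of these symbols. This found 23 of the 54613 tested probe sets, which belong to 9 of the 10 genes and to 9 of 19775 genes measured. No probe set in the annotation used here names BMPR1A, which was not analysed here. A further probe set that names ID2 together with another gene was left out.

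The cells are MDA-MB-231, an established line from human breast cancer with a mesenchymal look. One group of 3 arrays came from cells transfected with a control vector. The other group of 3 came from cells transfected with a plasmid that expresses HS3ST2, a heparan sulfate 3-O-sulfotransferase. The question put to the data here is how these genes differ between the transfected cells. The labels name no promoter for the plasmid, no selection or cloning step and no time after transfection. The design text calls the replicates independent but does not say whether they were separate transfections, so p-values measure the spread between these arrays.

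BMPs are secreted ligands that bring together type I and type II serine/threonine kinase receptors. The receptors phosphorylate SMAD1, SMAD5 and SMAD9, which enter the nucleus with SMAD4 and switch on target genes, ID1, ID2 and ID3 among the best known. ID proteins have a helix-loop-helix but no basic region, so they hold basic helix-loop-helix factors such as TCF3, TCF4 and TCF12 off DNA, and in many cell types they are linked to proliferation and the undifferentiated state. Many BMP ligands and antagonists bind heparan sulfate, the sugar chain that HS3ST2 modifies.

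The values are log2 numbers relative to each probe set's own median over the 6 arrays, so they give differences between arrays and no level. A gene's level cannot be compared with another's, and neither distance from background nor presence of the line's markers can be read from them. In RNA from bulk cells, fewer cells expressing a gene and less RNA per cell cannot be told apart. With 6 arrays the middle values of a probe set lie at equal distances on either side of 0 by construction. The median absolute difference between arrays over all probe sets ran from 0.1 to 0.122 log2 for arrays of the same group and from 0.16 to 0.193 across groups. The single HS3ST2 probe set differed by 0.11 ± 0.10 log2 (SE, n = 3 per group; 95% interval -0.13 to 0.35) and was not called. Whether it matches the plasmid's transcript is not given, so it does not check the labels, and the arrays are called HS3ST2-labelled. The median of 6 ribosomal RNA control probe sets was -0.20, -0.06 and -0.29 in the controls and 0.02, 0.16 and 0.74 in the HS3ST2-labelled arrays, where 3 against 3 can give no exact two-sided permutation p under the 0.1 found. Its part in the results was not tested. For the members and the pathway genes named below, values without HS3ST2 replicate 3, the highest array, are given where they change a call. The markers were not refitted without that array. Of the marker lists, 2 of 9 luminal epithelial genes rose (CDH1 by 0.42 and KRT18 by 0.26 log2) and 0 fell. Of 5 mesenchymal markers, FN1 rose by 0.46 while CD44 and VIM fell by 0.59 and 0.20. Over all genes, 11.5% were called higher and 13% lower by limma. None of 3 leukocyte and 5 fibroblast markers passed by limma, nor did any of them at an unadjusted p under 0.05.

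Among the ID and BMP genes, ID2, ID3, ID4 and BMP4 were lower and SMAD6 was higher in the HS3ST2-labelled arrays. ID1, BMP2, BMPR2 and BAMBI did not pass the test, which is limma with a Benjamini-Hochberg adjusted p under 0.05 over all genes. The 5 of 9 genes stand beside 24.5% beside 24.5% of all genes called. The 4 genes called lower stand beside 13% of all genes, and the 1 called higher beside 11.5%. Over probe sets, 6 of 23 were called lower and 2 higher, beside 8.98% and 7.9% of all probe sets, or 16.9% in either direction. The median difference of the 9 genes was -0.23 log2, against 0.01 over all genes. ID2 and ID3 differed more in size than 99.4% and 97.3% of genes, while BAMBI differed more than 46.3%.

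**Figure D1:**
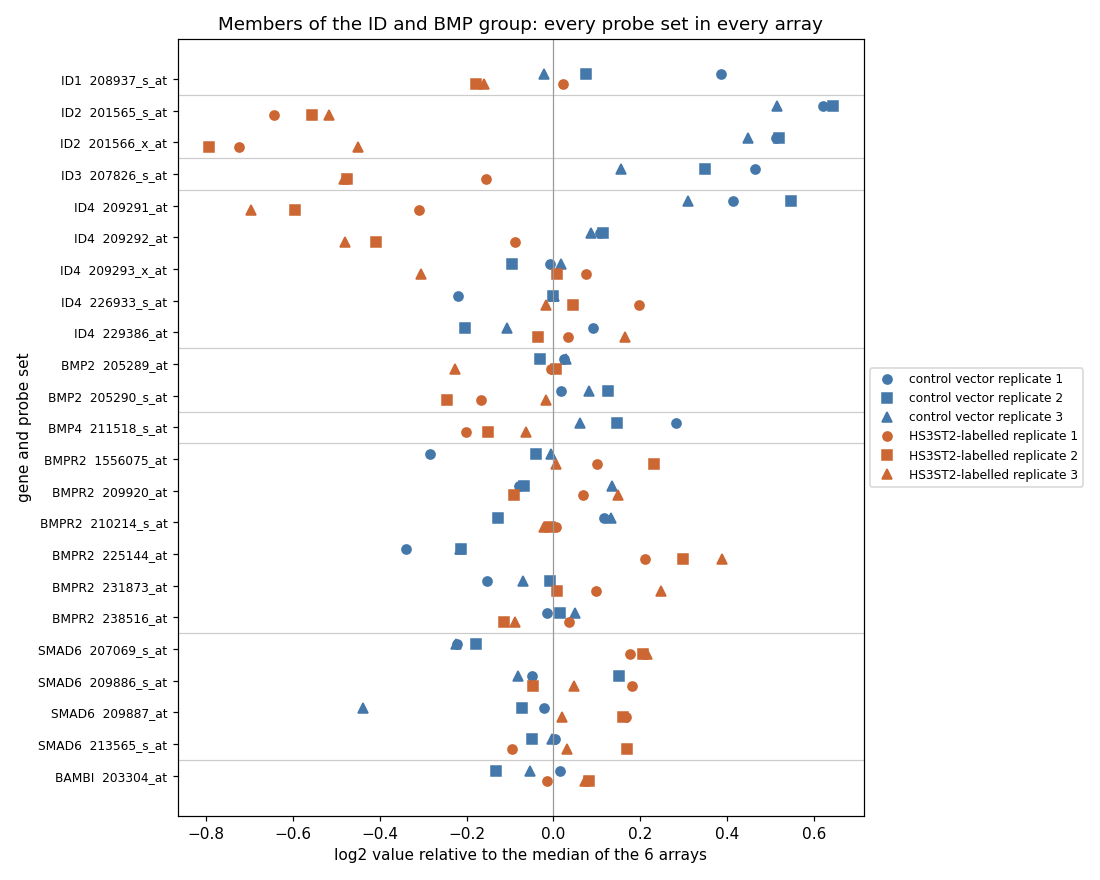
Centred log2 value (horizontal axis) of each of the 23 probe sets (vertical axis) in the 3 control vector arrays (blue) and the 3 HS3ST2-labelled arrays (orange), with the marker shape giving the replicate number. Both ID2 probe sets are from 0.45 to 0.64 in the controls and from -0.79 to -0.45 in the HS3ST2-labelled arrays, while the groups overlap for 11 of the 23 probe sets.

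ID2, which blocks basic helix-loop-helix factors and also binds the retinoblastoma protein, had the largest difference of these genes. Averaged over its 2 probe sets, ID2 was at 0.57, 0.58 and 0.48 in the controls and at -0.68, -0.67 and -0.48 in the HS3ST2-labelled ones. The lowest control array was far above the highest HS3ST2-labelled array. ID2 fell by 1.16 ± 0.07 log2 (SE, n = 3 per group), a 2.23-fold difference, with an adjusted p of 2.99e-05 by limma. The probe sets 201565_s_at and 201566_x_at gave differences of -1.16 and -1.15, so they differed from each other by less than their SE of 0.07 and 0.10. The call was made under all 13 alternative settings that kept ID2, with differences from -1.22 to -1.12. Leaving out probe sets ending in _x_at or _s_at removed both, so that setting could not test ID2.

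ID3, a further inhibitor of E proteins, is also a direct BMP target. Its single probe set was at 0.46, 0.35 and 0.15 in the controls and at -0.15, -0.48 and -0.48 in the HS3ST2-labelled ones. The groups did not overlap, but control replicate 3 and HS3ST2 replicate 1 lay closest to each other. ID3 fell by 0.69 ± 0.11 log2 (SE), a 1.62-fold difference, with an adjusted p of 0.00284 by limma. It was called under all 13 alternatives that kept ID3, from -0.80 to -0.62. Leaving out probe sets ending in _x_at or _s_at removed 207826_s_at, so that setting could not test ID3.

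ID4, the member of the family most often described in mammary basal cells and in the nervous system, gave a divided picture over its 5 probe sets. The probe set 209291_at was at 0.41, 0.55 and 0.31 in the controls and at -0.31, -0.59 and -0.70 in the HS3ST2-labelled arrays, a fall of 0.96 ± 0.11 log2 (SE; adjusted p 0.0013 over all probe sets by limma). The probe set 209292_at was at 0.11, 0.11 and 0.09 in the controls and at -0.09, -0.41 and -0.48 in the HS3ST2-labelled arrays, a fall of 0.43 ± 0.11 (adjusted p 0.0284). In both, every control array was above every HS3ST2-labelled array. The call of 209291_at was made in all 13 alternatives, while that of 209292_at was lost in 6 of 13, with adjusted p from 0.00625 to 0.0917. These were the threshold of 0.01 and the omission of any control array, of HS3ST2 replicate 2 (-0.39) or of HS3ST2 replicate 3 (-0.35). The other 3 probe sets, 209293_x_at, 226933_s_at and 229386_at, had overlapping groups and differences of -0.05, 0.15 and 0.13, with 95% intervals of -0.29 to 0.20, -0.06 to 0.36 and -0.09 to 0.35. These intervals do not reach the -0.96 of 209291_at. The mean over the 5 probe sets was -0.23 ± 0.07 with an adjusted p of 0.0481, and this call was lost in 9 of 14 alternatives. Adjusted p ran from 0.00104 to 0.142 over all 14. The call was lost when any array but HS3ST2 replicate 1 was left out, and the difference was -0.18 without HS3ST2 replicate 3, whose ribosomal RNA signal was highest. Taking the ID4 probe set with the largest SD gave -0.96 and a call, but an SD over all arrays includes the difference between the groups.

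ID1, the first described member and the usual readout of BMP signalling, was not called. Its single probe set was at 0.39, 0.08 and -0.02 in the controls and at 0.02, -0.18 and -0.16 in the HS3ST2-labelled ones. The groups overlapped, since HS3ST2 replicate 1 lay above control replicate 3, and control replicate 1 stood above the other two controls. The difference was -0.25 ± 0.11 log2 (SE), with a 95% interval of -0.50 to -0.00084 and an adjusted p of 0.139 by limma. Without control replicate 1 it was -0.13. Adjusted p ran from 0.0421 to 0.31 over 13 alternatives, and ID1 was called in 1 of them, the fit with the replicate number as a block.

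**Figure D2:**
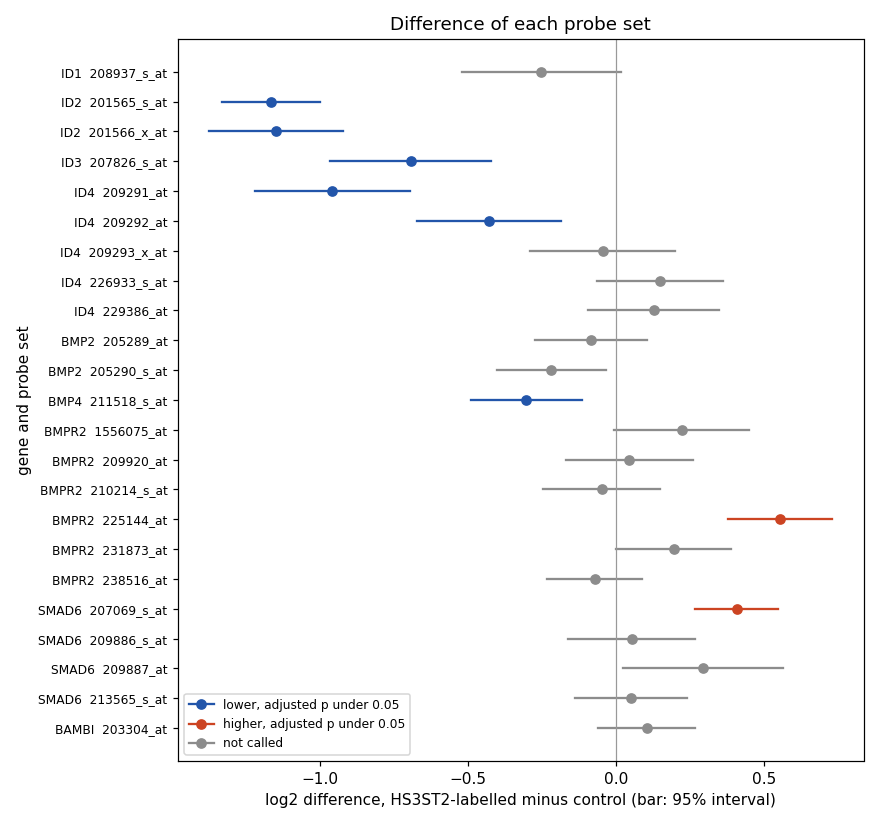
Log2 difference of each probe set, HS3ST2-labelled minus control (horizontal axis), with its 95% interval from limma (n = 3 per group), for the 23 probe sets (vertical axis). The probe sets of ID2 agree at -1.16 and -1.15, whereas those of ID4 run from -0.96 to 0.15, and 1 of 6 for BMPR2 and 1 of 4 for SMAD6 are called.

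The 4 paralogs were also set against each other within each array, where anything that scales an array as a whole cancels. The difference ID1 minus ID2 was -0.18, -0.51 and -0.50 in the controls and 0.70, 0.49 and 0.32 in the HS3ST2-labelled ones. The groups did not overlap, and the change was 0.90 log2. ID2 minus ID3 was 0.22 ± 0.11 (SD, n = 3) in the controls and -0.24 ± 0.27 in the HS3ST2-labelled arrays, a difference of -0.46. ID1 minus ID3 changed by 0.44, from -0.18 ± 0.10 to 0.26 ± 0.08. For ID2 minus ID4 and ID3 minus ID4 the changes were -0.93 and -0.46 with the mean of the ID4 probe sets, but -0.21 and 0.26 with the ID4 probe set of largest SD. ID1 minus ID4 had overlapping groups and a change of -0.02, and the change was 0.71 with that probe set. The exact two-sided permutation p was 0.1 for 5 of the 6 pairs, the smallest that 20 assignments allow (0.12 adjusted over the 6 pairs), and 1 for ID1 minus ID4, so this test could not reach 0.05 for any pair.

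**Figure D3:**
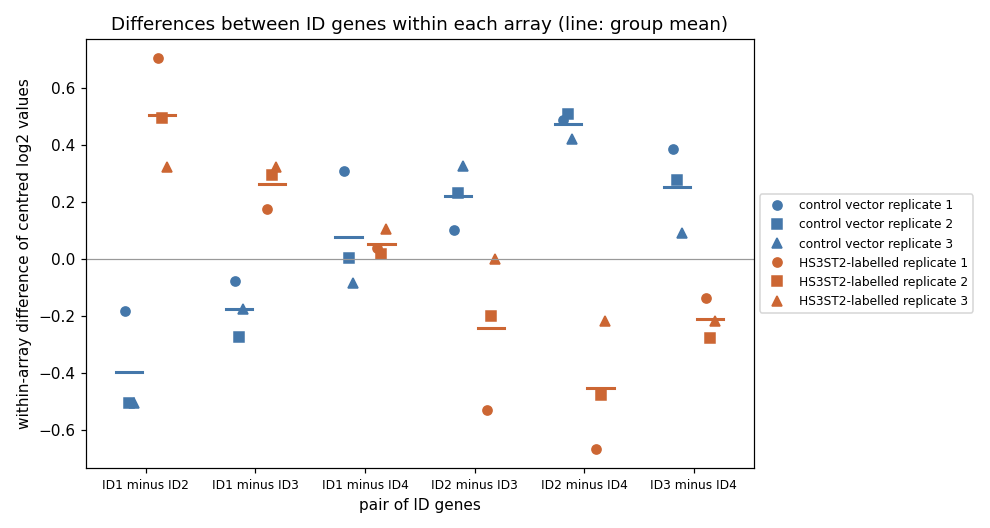
Within-array difference of the centred log2 values of 2 ID genes (vertical axis) for the 6 pairs (horizontal axis) in the 3 control arrays (blue) and 3 HS3ST2-labelled arrays (orange), with lines at the group means. The groups are apart for every pair but ID1 minus ID4, where the means are 0.08 and 0.05.

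The promoter sequences of the ID genes are shown because 3 of the 4 were called lower, and that of SMAD6 because it is the member called higher. Of these gene calls, that of ID4 was lost in 9 of 14 alternatives and that of SMAD6 in 8 of 14. Each is the 250 bases before the RefSeq start of the gene in GRCh38.p14, 5′ to 3′ on the gene's strand, and 9 of the 10 genes, all but BMP2, had an entry. Capitals mark matches to GGCGCC, a GC-rich element bound by BMP SMADs, to CAGAC on either strand, which holds the AGAC core of the SMAD box, to the E-boxes CAGCTG and CACCTG, which basic helix-loop-helix factors bind, and to GTCTAGAC, the palindromic SMAD box, which was added after the sequences had been seen.
ID1, chr20:31605039-31605288, plus strand: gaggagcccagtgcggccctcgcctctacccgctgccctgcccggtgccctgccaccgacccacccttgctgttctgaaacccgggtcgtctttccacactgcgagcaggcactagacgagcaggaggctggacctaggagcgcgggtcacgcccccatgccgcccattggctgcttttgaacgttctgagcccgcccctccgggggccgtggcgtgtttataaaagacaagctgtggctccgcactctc
ID2, chr2:8681806-8682055, plus strand: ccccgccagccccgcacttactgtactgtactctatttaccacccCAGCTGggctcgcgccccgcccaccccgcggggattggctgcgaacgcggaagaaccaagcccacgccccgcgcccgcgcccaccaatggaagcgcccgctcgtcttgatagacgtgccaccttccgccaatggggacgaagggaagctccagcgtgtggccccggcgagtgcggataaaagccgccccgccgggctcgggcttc
ID3, chr1:23559502-23559751, minus strand: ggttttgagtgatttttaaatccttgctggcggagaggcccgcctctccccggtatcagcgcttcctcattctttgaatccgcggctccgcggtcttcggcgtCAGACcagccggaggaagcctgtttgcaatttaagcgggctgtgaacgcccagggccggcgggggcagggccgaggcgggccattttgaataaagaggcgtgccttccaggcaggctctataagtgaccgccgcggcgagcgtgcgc
ID4, chr6:19837120-19837369, plus strand: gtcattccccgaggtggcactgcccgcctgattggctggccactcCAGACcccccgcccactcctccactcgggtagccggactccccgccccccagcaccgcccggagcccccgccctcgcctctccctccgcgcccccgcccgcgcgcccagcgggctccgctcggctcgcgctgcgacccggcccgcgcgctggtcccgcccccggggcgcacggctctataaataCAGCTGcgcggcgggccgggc
SMAD6, chr15:66701986-66702235, plus strand: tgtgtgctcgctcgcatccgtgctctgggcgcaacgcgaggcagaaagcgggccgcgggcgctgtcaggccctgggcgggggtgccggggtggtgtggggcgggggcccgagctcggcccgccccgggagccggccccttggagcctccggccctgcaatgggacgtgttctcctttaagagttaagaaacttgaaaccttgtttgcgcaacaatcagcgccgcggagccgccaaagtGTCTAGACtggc
Among them, the ID1 window held none of the 5 motifs and those of ID2, ID3 and ID4 held no GGCGCC. The ID2 window held CAGCTG from 205 to 200 bases before the start, and ID4 held it from 21 to 16 bases before the start. CAGCTG was also in the BMPR2 window, from 10 to 5 bases before the start. This E-box is found in 14% of all 35116 windows of this length. CAGAC was found 147 to 143 bases before the start of ID3 and 205 to 201 before that of ID4. It was also in the BMPR2 and BAMBI windows, 2 times each, and in the most upstream and most downstream BMP4 windows. Of all windows, 38% hold it on 1 strand or the other. SMAD6 held GTCTAGAC from 12 to 5 bases before its start, and this motif is in 0.182% of windows, 64 in all. Since the motif was added after the sequences had been seen, this share does not measure how unusual the match is. GGCGCC, which 16.4% of windows hold, occurred 3 times in the BAMBI window and once each in that of BMPR2 and in the most upstream of 3 BMP4 windows. CACCTG, in 17.5% of windows, was in none of the 11 windows of these genes. A match describes letters only and shows no binding. Only these windows were searched, so the lack of a match says nothing about bases outside them.

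Of the ligands, BMP4 was lower and BMP2 did not pass. BMP4, a morphogen that acts through BMPR1A and BMPR2, had its single probe set at 0.28, 0.15 and 0.06 in the controls and at -0.20, -0.15 and -0.06 in the HS3ST2-labelled ones. The groups did not overlap and the nearest arrays were the replicates numbered 3. BMP4 fell by 0.30 ± 0.07 log2 (SE), with an adjusted p of 0.0175 over genes and 0.039 over probe sets by limma. Over genes it was not called without HS3ST2 replicate 1 or HS3ST2 replicate 2, and adjusted p ran from 0.0151 to 0.0622 over 13 alternatives. Over probe sets the call was lost in 7 of 12 alternatives, with adjusted p from 0.0361 to 0.117. These were the replicate block (0.0869), the threshold of 0.01 and the omission of any array but control replicate 3, with a difference of -0.34 without HS3ST2 replicate 3. BMP2, a close relative used clinically to induce bone, was at 0.02, 0.05 and 0.06 in the controls and at -0.09, -0.12 and -0.12 in the HS3ST2-labelled arrays over its 2 probe sets. These means did not overlap and had an SD of 0.02 in each group, and the difference was -0.15 ± 0.05 with a 95% interval of -0.26 to -0.04. The adjusted p was 0.0565 and ran from 0.0486 to 0.525, with a call in 1 of 14 alternatives, array weights. Its probe sets gave -0.22 (205290_s_at) and -0.08 (205289_at).

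Groups that do not overlap were common in these data, at 34.1% of all probe sets and 40.4% of all genes. Among the genes described here they did not overlap for 7 of 9 genes and 12 of 23 probe sets. Of the genes, 2 lay higher and 5 lower, beside 19.5% and 20.9% of all genes. Of the probe sets, 5 lay higher and 7 lower, beside 16.6% and 17.4% of all probe sets.

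The type II receptor BMPR2, mutated in heritable pulmonary arterial hypertension, was called in 1 of its 6 probe sets and not as a gene. The probe set 225144_at was at -0.34, -0.21 and -0.21 in the controls and at 0.21, 0.30 and 0.39 in the HS3ST2-labelled arrays. It rose by 0.56 ± 0.08 log2 (SE; adjusted p 0.00238 by limma), with the groups wide apart. The probe sets 1556075_at and 231873_at also had groups that did not overlap, with differences of 0.22 and 0.20 that did not pass. The other 3, 209920_at, 210214_s_at and 238516_at, had overlapping groups and differences of 0.05, -0.05 and -0.07. Averaged over the 6, BMPR2 was at -0.13, -0.07 and 0.0046 in the controls and at 0.09, 0.05 and 0.11 in the HS3ST2-labelled ones. The difference was 0.15 ± 0.06 with a 95% interval of 0.02 to 0.28 and an adjusted p of 0.0909. With the probe set of largest SD, BMPR2 was called (0.56), the one setting of 14 that called it. That SD is taken over the 6 arrays and includes the difference between the groups. The probe set was thus chosen partly by the difference tested, and this call is no separate support.

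SMAD6, an inhibitory SMAD that is itself induced by BMP signals, was called higher as a gene and in 1 of its 4 probe sets. The probe set 207069_s_at was at -0.22, -0.18 and -0.22 in the controls and at 0.18, 0.21 and 0.22 in the HS3ST2-labelled arrays, a rise of 0.41 ± 0.06 log2 (SE; adjusted p 0.00347 by limma). Within each group these values spread little, with an SD of 0.03 and 0.02. The probe set 209887_at did not overlap either (0.29 ± 0.12), with control replicate 3 at -0.44 far below the other controls, and it was not called. The probe sets 209886_s_at and 213565_s_at overlapped and differed by 0.05 each. The mean over the 4 was at -0.07, -0.04 and -0.19 in the controls and at 0.11, 0.12 and 0.08 in the HS3ST2-labelled ones. It rose by 0.20 ± 0.06 with an adjusted p of 0.0375. This call was lost in 8 of 14 alternatives, and adjusted p ran from 0.00331 to 0.11. Control replicate 2 was the one array whose omission left SMAD6 called, and without HS3ST2 replicate 3 the difference was 0.21.

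BAMBI, a decoy receptor without a kinase domain that dampens BMP and TGF-beta signals, did not pass. Its probe set was at 0.02, -0.13 and -0.05 in the controls and at -0.02, 0.08 and 0.07 in the HS3ST2-labelled ones. The groups overlapped, and the difference was 0.10 ± 0.06 log2 (SE), with a 95% interval of -0.04 to 0.24 and an adjusted p of 0.271 by limma. No alternative called it.

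The rest of the pathway was described from 91 further genes, of which 87 were measured. Of these, 16 rose and 9 fell, or 18.4% and 10.3%, beside 11.5% and 13% of all genes, and their median difference was 0.03 log2. The 7 lists below share 1 test over all genes and are described by their counts.

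**Figure D4:**
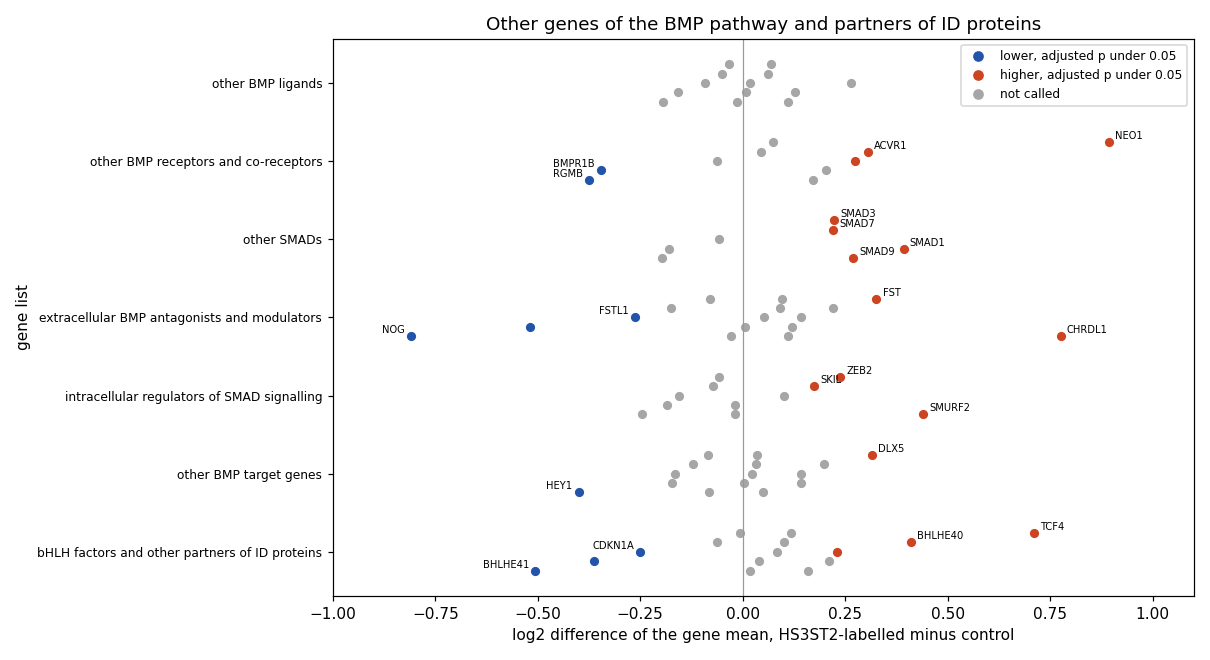
Log2 difference of the gene mean, HS3ST2-labelled minus control (horizontal axis), for the 87 other genes by list (vertical axis), with genes called higher in red, lower in blue and the rest in grey, and names for up to 4 called genes of each list. None of the 13 other BMP ligands is called, and the 4 SMADs called are all higher.

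None of the 13 other BMP ligands passed by limma, although 3 had an unadjusted p under 0.05. Of 10 other receptors and co-receptors, 3 rose and 2 fell. NEO1, neogenin, which serves as a receptor for RGM co-receptors, rose by 0.89 ± 0.07 log2 (SE), and 2 of its 3 probe sets were called, the third being at -0.08. RGMB, a BMP co-receptor of that RGM family, fell by 0.38 ± 0.06. ACVR1, a type I receptor, rose by 0.30 ± 0.06, while BMPR1B, another type I receptor, fell by 0.35 ± 0.08. These 2 of the type I receptors thus moved in opposite directions, and NEO1, RGMB and ACVR1 were called in all 14 alternatives.

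Of 7 other SMADs, 4 rose, 0 fell and 3 did not pass. SMAD1, which carries the BMP signal, rose by 0.39 ± 0.05 log2 (SE), with values of -0.18, -0.20 and -0.19 in the controls and 0.15, 0.23 and 0.23 in the HS3ST2-labelled arrays. It was the one of the 4 called in all 14 alternatives. SMAD9, its relative, rose by 0.27 ± 0.07, but its 2 probe sets gave 0.59 and -0.05. SMAD3, of the TGF-beta branch, rose by 0.22 ± 0.06 and was not called without the probe sets ending in _x_at or _s_at (0.12). SMAD7, the other inhibitory SMAD, rose by 0.22 ± 0.06 on 1 probe set, which was not called over probe sets (adjusted p 0.0869 by limma). Without HS3ST2 replicate 3, SMAD9 (0.27) and SMAD7 (0.24) were not called, and SMAD1 (0.38) and SMAD3 (0.27) were. SMAD3 lost its call when any other array was left out, SMAD7 without any array but control replicate 1, and SMAD9 also on leaving out control replicate 1, control replicate 2 or HS3ST2 replicate 2.

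Of 16 extracellular antagonists and modulators, 2 rose and 3 fell. NOG, noggin, which sequesters BMPs, was at 0.23, 0.37 and 0.48 in the controls and at -0.63, -0.23 and -0.48 in the HS3ST2-labelled arrays. It fell by 0.81 ± 0.11 log2 (SE; adjusted p 0.00118 by limma). CHRDL1, a chordin-like BMP antagonist, was at -0.38, -0.30 and -0.67 in the controls and at 0.31, 0.30 and 0.37 in the HS3ST2-labelled arrays. It rose by 0.78 ± 0.09 (adjusted p 7.84e-04), so that 2 antagonists of the same ligands moved in opposite directions. FST, follistatin, which binds activins and some BMPs, rose by 0.33 ± 0.05. FSTL1, a follistatin-like glycoprotein, fell by 0.26 ± 0.06, with probe sets from -0.75 to 0.02, and was not called if control replicate 2, control replicate 3 or HS3ST2 replicate 1 was left out. NOG, CHRDL1 and FST were called in all 14 alternatives.

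Of 11 intracellular regulators of SMAD signalling, 3 rose, 0 fell and 8 did not pass. SMURF2, a ubiquitin ligase that marks SMADs and receptors for degradation, rose by 0.44 ± 0.08 log2 (SE), with 3 of its 4 probe sets called. ZEB2, a SMAD-binding repressor, rose by 0.24 ± 0.05, and SKIL, a corepressor of SMADs, by 0.17 ± 0.05. The call of SKIL was lost in 9 of 14 alternatives, among them each omission of 1 array (0.15 to 0.20, and 0.17 without HS3ST2 replicate 3), and that of ZEB2 in 3. Of 15 other BMP target genes, HEY1, a transcriptional repressor, fell by 0.40 ± 0.07 and DLX5, a homeobox factor of bone, rose by 0.32 ± 0.08, while 13 did not pass. HEY1 was not called without the probe sets ending in _x_at or _s_at (-0.29). DLX5 was not called in 5 of 13 alternatives, among them on leaving out control replicate 1, control replicate 3, HS3ST2 replicate 2 or HS3ST2 replicate 3 (0.28 for the last). The single DLX5 probe set was not called over probe sets (adjusted p 0.0551 by limma).

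Of 15 partners of ID proteins and related factors, 3 rose and 3 fell. TCF4, an E protein that ID proteins bind, was at -0.29, -0.38 and -0.34 in the controls and at 0.30, 0.35 and 0.48 in the HS3ST2-labelled arrays. It rose by 0.71 ± 0.06 log2 (SE; adjusted p 1.82e-04 by limma), with 7 of its 8 probe sets called higher and the remaining one at 0.05. BHLHE40 and BHLHE41, related repressors of the circadian clock, moved apart. BHLHE40 rose by 0.41 ± 0.06 with both probe sets called. BHLHE41 fell by 0.51 ± 0.05, but without the probe sets ending in _x_at or _s_at it was at -0.08 and not called. CDKN1A, the cyclin-dependent kinase inhibitor p21, fell by 0.25 ± 0.06 and was not called without HS3ST2 replicate 3 (-0.23).

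The genes whose 6 values lay nearest to those of ID2 and ID3 were found by the mean absolute difference over the 6 arrays. For ID2 they were GJB2 and GJA1, which encode connexins, and PBK, a mitotic kinase, at mean differences of 0.037, 0.039 and 0.041 log2. They fell by 1.11, 1.15 and 1.13 log2. For ID3 they were ADGRE5, an adhesion receptor (0.054), ECHDC3 (0.061) and POC1A, a centriole protein (0.063), which fell by 0.77, 0.75 and 0.62. These are the nearest of 19775 genes on 6 arrays that share their libraries, and the likeness is a description.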

How the data were processed

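Per the submitters' processing notes, the arrays were summarised with RMA, with no version named. Biotinylated cRNA was made from 3.6 µg of total RNA, per the labels' protocols. The deposited log2 values have a median of 0 over the 6 arrays for every probe set (within 1e-06), so each had been centred. Which software did so was not given in the sources used here. No source states the log base, which was read as 2, as in RMA output. Precision is limited by the number of arrays.

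Of 54675 probe sets, 62 controls were set aside. The platform annotation gave 1 symbol for 41091 of the 54613 tested, several for 1801 and none for 11721, and 41037 were matched to a current gene record. Probe sets of a gene were averaged, since no levels remain to choose by. The groups were compared in R 4.3.3 by lmFit and eBayes of limma 3.58.1, without covariates, over all probe sets and over all 19775 genes, and calls needed an adjusted p (Benjamini-Hochberg) under 0.05. Differences are HS3ST2-labelled minus control. Their SE is the moderated one, from 3 arrays a group. On simulated data, the gene fit (19775 genes) called 44% of changes of 0.3 log2, 94% of 0.5 and 100% of 1, with 14 false calls. The probe set fit (54613) called 2%, 62% and 100%, with 2 false calls. The simulated noise was independent and normal, with the moderated spread of each gene or probe set. Far fewer changes were planted than the 4845 genes called here. The adjusted p depends on that number, so these shares do not give the power of this comparison.

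The members, the lists and the tests were chosen with earlier results of these data known. Named are all members, HS3ST2, up to 4 called genes with the smallest p of each list, and the 3 genes nearest to each of the 2 members with the largest difference. Called markers are named too, having been chosen after their values were seen. Alternatives were the replicate number as a block, quantile normalization, median centring, array weights, robust eBayes, a threshold of 0.01, leaving out each array, leaving out probe sets ending in _x_at or _s_at (whose probes can match other transcripts), and the probe set of largest SD. That SD is over all arrays of both groups, so it includes the difference tested. The setting leans towards probe sets that differ, and its calls are no separate support. Sequences are from RefSeq (GRCh38.p14). No genome build is named for the arrays.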

Additional observations from a re-analysis of the deposited data

How the results depend on the processing

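ID2 and ID3 were called lower in every alternative that kept their probe sets. None of the members, their probe sets and the named pathway genes, where called in either fit, changed sign. The markers and the genes nearest to ID2 and ID3 were not run through the alternatives. Of 23 probe sets, 6 were called lower and 2 higher, and leaving out 1 array gave 4 to 5 lower and 2 higher in every case. Without the probe sets ending in _x_at or _s_at, 2 of 11 were lower and 1 higher. Of genes, 1 of 5 was lower and 0 higher, where fewer probe sets and genes are tested. ID1, ID2, ID3 and BMP4 have only such probe sets, so that setting could not test them. Of 9 genes, 4 were lower and 1 higher. Leaving out 1 array gave 2 to 3 lower and 0 to 1 higher, and a threshold of 0.01 left 2 lower and 0 higher. With the probe set of largest SD, a choice that uses the group difference, 2 genes were higher. Of the 87 other genes, 16 were higher and 9 lower, with 8 and 4 at the threshold of 0.01, and 10 to 12 and 7 to 11 when 1 array was left out. Among the omissions of 1 array, the 10 came without HS3ST2 replicate 2, which also left 2 of the 9 genes lower.

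With the probe set of largest SD the pairs with ID4 moved to 0.71 for ID1 minus ID4, -0.21 for ID2 minus ID4 and 0.26 for ID3 minus ID4. When 1 array was left out, ID1 minus ID2 ran from 0.81 to 1.01, ID1 minus ID3 from 0.39 to 0.49, ID1 minus ID4 from -0.10 to 0.09, ID2 minus ID3 from -0.58 to -0.32, ID2 minus ID4 from -1.04 to -0.82 and ID3 minus ID4 from -0.54 to -0.40.

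Same-numbered replicates did not deviate together (r of their deviations from the group means 0.12, 0.05 and -0.08 over 19775 genes, and 3 of 6 arrays correlated best with their own number), so the numbers were not taken to pair the arrays. With the replicate block, 4302 genes were called in place of 4845. Of the 9 genes, 4 were lower and 0 higher, since ID4 (adjusted p 0.0597 by limma) and SMAD6 (0.0549) were lost and ID1 (0.0421) was gained. In the paralog pairs the replicate block kept the differences, with sign-flip p of 0.25 for 5 pairs, the smallest 3 pairs allow. No levels remain, so no filter on dim probe sets was run.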
